A study of Mus musculus with 45 samples.

Results

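In these data 2 dense clusters of distal peaks, with 10 peaks between them, met the rule used here among the 184964 ATACseq peaks of mouse embryonic stem cells. An autosomal peak was eligible if the authors' fold enrichment over the local background was at least 4 and its summit lay more than 2 kb from every annotated transcription start. Eligible peaks whose summits were at most 5 kb apart were joined, and groups of 5 or more were kept. Of 139921 autosomal distal peaks, 47737 were eligible. Of these, 38951 stood alone and 8776 fell in groups of 2 to 4, made of 3893 pairs, 294 triples and 27 quadruples, which left 2 groups of 5 and no larger group. The rule used the peak list of the merged libraries and no comparison between conditions. The peaks of a group are called sites here and are numbered along the chromosome.

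The study followed accessibility after SOX2, OCT4 or NANOG, each fused to an FKBP tag, was removed by dTAG-13, a compound that directs FKBP-tagged proteins to degradation. SOX2-FKBP and NANOG-FKBP cells derive from the E14 line (IB10 cells for SOX2) and OCT4-FKBP cells from V6.5, so the parental line and the depleted factor cannot be told apart when OCT4 is compared with either of the others. All were grown without serum in LIF with inhibitors of MEK and GSK3, and were given 500 nM dTAG-13 or, as untreated cells (NT), DMSO. SOX2-FKBP cells had 2 libraries each of NT and of 0.5, 1, 2, 6 and 24 h, OCT4-FKBP cells 2 each of NT and of 2, 6 and 24 h, and NANOG-FKBP cells 2 of NT and 3 each of 2, 6 and 24 h. The methods give duplicates for OCT4 and NANOG, and for SOX2 duplicates and also a separate clone. They do not say which libraries these are. Nothing in the labels says that the replicates were separate cultures, so p-values measure the spread between these libraries, which may be technical.

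In ATACseq the Tn5 transposase inserts adapters where DNA is open, so that more fragments in a peak mean a more open site. Distal sites that open in one cell type are often enhancers, and several of them close together, densely bound by the factors of that cell type, are known as super-enhancers. In embryonic stem cells SOX2 and OCT4 bind side by side at many such sites and NANOG joins them there. Stretches of this kind near pluripotency genes are the best known examples.

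Cluster 1 lay on chromosome 1 at chr1:20933362-20943460 (mm10) and spanned 10099 bp, of which its 5 peaks covered 3439 bp. Their summits were at 20933677, 20935493, 20939240, 20940325 and 20943227, with fold enrichments of 6.68, 4.16, 5.41, 5.75 and 5.09. Site 1 lay in an intron of Paqr8, which encodes a membrane receptor of the progestin and adipoQ receptor family, and sites 2 and 3 in exons of that gene. Sites 4 and 5 were intergenic, between Paqr8 and the predicted gene Gm28064, whose start was 2484 bp from the summit of site 5.

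Cluster 2 lay on chromosome 8 at chr8:20581277-20594203 (mm10) and spanned 12927 bp, of which its peaks covered 4579 bp. Its summits were at 20581304, 20584140, 20589023, 20590644 and 20594026, with fold enrichments of 4.14, 10.82, 6.57, 7.6 and 6.35. Site 1 lay in an intron of the predicted gene Gm21092 and the other 4 sites were intergenic. The nearest start to sites 2 to 5 was that of the predicted gene Gm21112, between 3015 and 12901 bp from the summits. Neither cluster lay within 150 kb of a start of the naive pluripotency genes that were looked for (among them Sox2, Pou5f1, Nanog, Esrrb and Klf4).

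**Figure D1:**
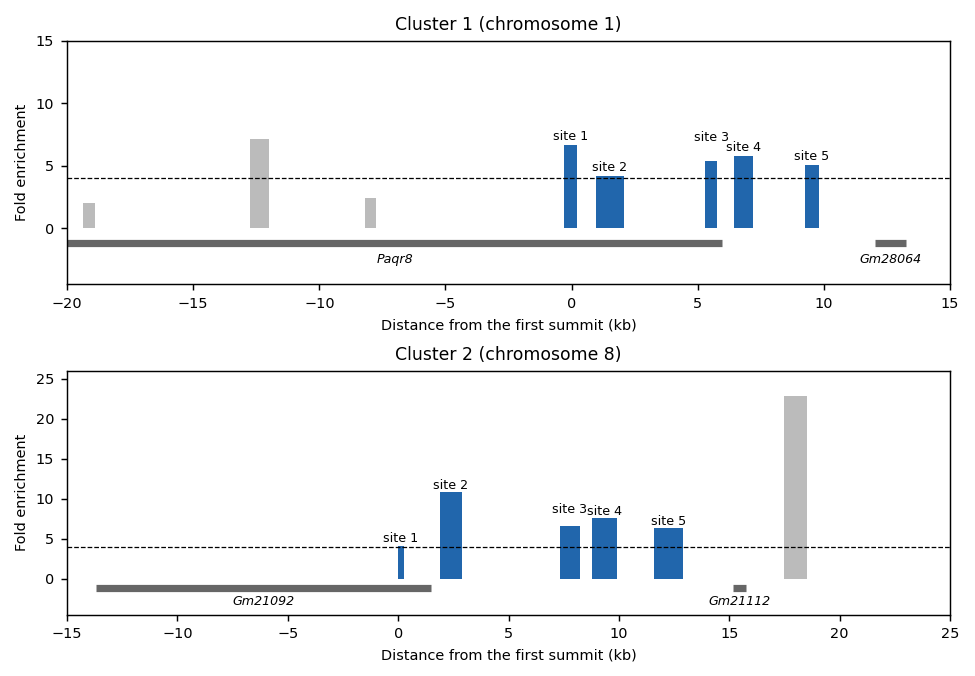
Fold enrichment of the peaks of both clusters (blue, sites 1 to 5) and of peaks next to them (grey) against the distance from the first summit in kb, with the genes named in the text as dark bars and the minimum of 4 as a dashed line. Bar width is the width of the peak, and the tallest neighbour of cluster 2, at 22.89, stands 5540 bp past its last summit.

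The peaks next to the clusters were outside the rule for their enrichment, their distance to a start or their spacing. In cluster 1 a peak with an enrichment of 7.14 lay 12335 bp before site 1 and only 917 bp from the start of Paqr8, and one with 2.44 lay 8128 bp before it. In cluster 2 a peak with 22.89 lay 5540 bp past site 5, just over the joining distance. Just inside the threshold of 4 were site 1 of cluster 2 with 4.14 and site 2 of cluster 1 with 4.16. No cluster was left when summits had to be at most 3 kb apart, when the enrichment had to be at least 6, or when peaks had to be more than 5 kb from a start.

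The sequence at the summits set the clusters apart. No site of cluster 1 had another place in mm10 that matched at least 80% of the peak at 90% identity or more. Every site of cluster 2 had at least 1 such copy, with 6, 3, 1, 3 and 2 copies for sites 1 to 5 and identities of 96.6% to 99.6%. All lay on chromosome 8 but 1 copy of site 1. An inverted copy of the whole cluster, on the minus strand at chr8:20383919-20396878, matched all 5 sites at 99.2% to 99.6%. Alignments under a mapping quality of 10 had been removed by the authors, so a fragment was counted in cluster 2 only where the aligner could place it, and the values of its sites are uncertain to that extent.

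The windows of 3 sites of cluster 2 are shown here because they hold the sites that were called after OCT4 depletion, and 2 of cluster 1 because they hold matches to the SOX motif. They were chosen after their values were seen. Each is the 300 bases around the summit on the plus strand of mm10. In cluster 2, capitals mark the letters that differ from the closest copy or are missing from it (2 letters for site 1, 6 for site 2 and 1 for site 5, with the rest of each window the same as the copy). In cluster 1, capitals mark the matches to CNTTGT on either strand.
Cluster 2 site 1, chr8:20581154-20581453: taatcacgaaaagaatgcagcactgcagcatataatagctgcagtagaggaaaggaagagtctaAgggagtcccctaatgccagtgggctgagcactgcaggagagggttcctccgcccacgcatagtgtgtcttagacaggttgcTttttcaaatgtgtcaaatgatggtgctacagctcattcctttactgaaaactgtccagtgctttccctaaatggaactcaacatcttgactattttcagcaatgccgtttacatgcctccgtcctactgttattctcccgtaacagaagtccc
Cluster 2 site 2, chr8:20583990-20584289: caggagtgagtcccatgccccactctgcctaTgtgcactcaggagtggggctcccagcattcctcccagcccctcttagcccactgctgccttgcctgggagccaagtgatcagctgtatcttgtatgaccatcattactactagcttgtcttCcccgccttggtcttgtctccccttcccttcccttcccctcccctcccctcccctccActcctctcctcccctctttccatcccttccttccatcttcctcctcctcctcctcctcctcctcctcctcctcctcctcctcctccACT
Cluster 2 site 5, chr8:20593876-20594175: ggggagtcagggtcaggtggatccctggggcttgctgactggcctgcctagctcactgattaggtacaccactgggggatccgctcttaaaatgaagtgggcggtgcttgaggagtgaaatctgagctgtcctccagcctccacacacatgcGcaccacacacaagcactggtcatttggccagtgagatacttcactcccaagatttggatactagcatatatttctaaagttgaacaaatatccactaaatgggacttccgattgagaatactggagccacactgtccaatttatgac
Cluster 1 site 4, chr1:20940175-20940474: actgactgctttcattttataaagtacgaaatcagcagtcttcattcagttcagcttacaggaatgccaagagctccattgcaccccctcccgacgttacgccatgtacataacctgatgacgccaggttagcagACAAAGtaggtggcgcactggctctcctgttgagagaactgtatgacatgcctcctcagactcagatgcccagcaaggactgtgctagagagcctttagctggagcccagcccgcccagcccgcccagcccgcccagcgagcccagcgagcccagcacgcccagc
Cluster 1 site 5, chr1:20943077-20943376: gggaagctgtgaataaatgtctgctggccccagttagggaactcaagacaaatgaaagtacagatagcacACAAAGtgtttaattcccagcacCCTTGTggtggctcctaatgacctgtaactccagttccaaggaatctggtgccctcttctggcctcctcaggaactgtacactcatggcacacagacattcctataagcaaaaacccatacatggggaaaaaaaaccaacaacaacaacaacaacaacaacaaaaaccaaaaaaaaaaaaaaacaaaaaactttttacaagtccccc

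The window of site 2 of cluster 2 ends in a run of cct repeats that lies past the end of the peak, and 44.7% of the window is masked as repeat, against a median of 9.67% over the eligible peaks. At 300 bp the SOX motif (CNTTGT) matched in 3 of the 10 windows, sites 2, 4 and 5 of cluster 1, against 52.726% of eligible windows. The POU motif bound by OCT4 (ATGNAAAT) matched in 0 of 10, against 7.212%, and so did the joint SOX-POU motif, TTGT followed after 1 base by ATGNAA, which shares letters with both and was in 0.637% of eligible windows. The TEAD motif (GGAATG) matched in 5 of 10, against 20.688%, and was the only one of those searched that matched in cluster 2, at its sites 1, 2 and 3. The CTCF core (AGGNGGC) matched in 3 of 10, against 30.142%, and the KLF motif (GGGNGTGG) in 1, against 17.642%. The motifs of ESRRB (CAAGGTCA), STAT (TTCNNNGAA) and TFAP2 (GCCNNNGGC) matched in none, against 6.14%, 9.29% and 10.554%. All were searched on both strands, and with 10 windows these shares are a description.

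Total counts in peaks lay between 1817191 and 17575631 per library. The 3 treated NANOG-FKBP libraries of replicate 2 held 1817191 to 3272168, the other 8 of that line 4247580 to 12437876. The 10 sites held between 1 and 140 fragments per library. Levels are given as CPM, the fragments of a peak relative to all fragments counted in peaks, scaled by TMM. The share of counts on chromosome 8 was 5.173% to 5.349% in the SOX2-FKBP libraries, 7.412% to 7.706% in OCT4-FKBP, 6.998% to 7.104% in NANOG-FKBP NT replicate 2 and the treated libraries of replicate 3, and 5.506% to 5.796% in the other NANOG-FKBP libraries. It changed little between times within SOX2-FKBP and within OCT4-FKBP. In NANOG-FKBP it split by replicate, with 5.52% and 7.104% in NT replicates 1 and 2, so NT and treated libraries there do not hold the higher share in equal proportion. The part of this share in the levels of cluster 2 was not tested. Peaks stood at the promoters of all 8 stem cell markers looked for (10.42 to 49.95 CPM in NT), and also at 4 of 5 fibroblast, 3 of 4 primitive endoderm and 3 of 4 trophoblast promoters. The highest of these were at 11.22, 34.24 and 16.09 CPM in NT, within the range of the stem cell markers.

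In untreated cells the sites were not of high accessibility. Their mean over the 6 NT libraries ran from 1.015 CPM at site 1 of cluster 2 to 7.74 CPM at site 4 of that cluster, beside a median of 4.916 CPM over eligible peaks. Among those peaks they stood between the 0.12 and the 70.91 percentile. In cluster 1 the means were 3.163, 5.136, 2.803, 3.847 and 2.251 CPM for sites 1 to 5, and in cluster 2 they were 1.015, 4.552, 6.051, 7.74 and 7.335 CPM. Per kb of peak the range was narrower, 3.746 to 6.971 CPM per kb, with a median of 5.341 for eligible peaks. The name of super-enhancer-like stretches therefore rests on spacing alone here, and the groups are called by their rule.

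Levels in untreated cells are given by line for 3 sites. Site 4 of cluster 1 was at 2.06 and 2.76 CPM in SOX2-FKBP, 5.46 and 4.54 in OCT4-FKBP and 3.53 and 4.74 in NANOG-FKBP. Site 4 of cluster 2 was at 6.26 and 3.78, 8.48 and 7.49, and 10.4 and 9.99 CPM in the same order. Site 1 of cluster 2 was the lowest in every line, with 0.804 and 0.29, 1.18 and 1.99, and 0.988 and 0.847 CPM. The NT libraries of SOX2-FKBP and OCT4-FKBP did not overlap at 6 of the 10 sites, beside 66.0% of all tested peaks, those of SOX2-FKBP and NANOG-FKBP at 5, beside 53.5%, and those of OCT4-FKBP and NANOG-FKBP at 4, beside 50%. All 3 lines were apart at 2 sites, sites 1 and 4 of cluster 2, beside 21.1% of peaks. These shares are close to those of all peaks. Parental line, tagged factor and batch cannot be told apart in these values.

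**Figure D2:**
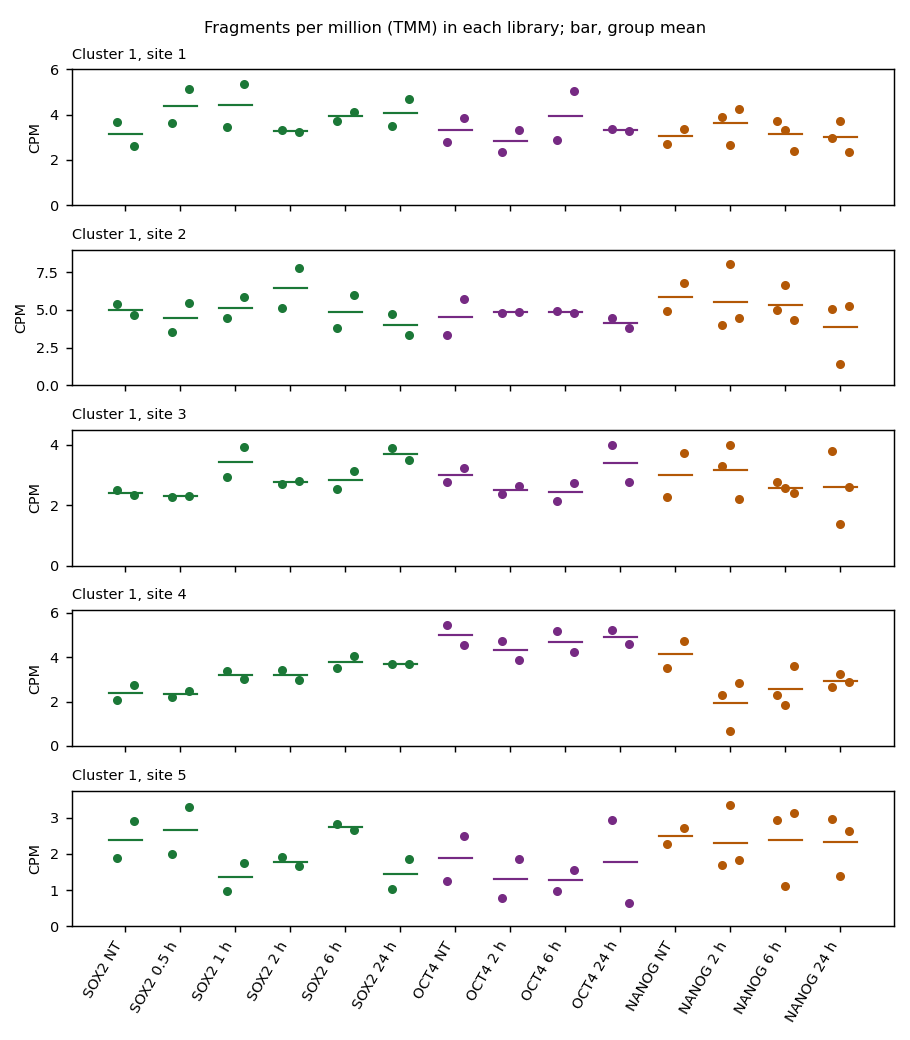
Level in CPM (TMM scaled) of sites 1 to 5 of cluster 1 in each of the 31 libraries, by line and time, with a bar at the group mean. The sites stay between 0.6548 and 8.0226 CPM and no group was called against its NT libraries.

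After SOX2 depletion none of the 10 sites was called lost or gained at any time. A site counts as lost or gained where its adjusted p fell under 0.05 in edgeR's quasi-likelihood test, adjusted by Benjamini-Hochberg over every tested peak. Among all peaks 3.14% were lost and 0.158% gained at 0.5 h, 5.46% and 0.889% at 1 h, 5.06% and 0.574% at 2 h, 6.83% and 1.18% at 6 h, and 10.9% and 4.87% at 24 h. The median log2 fold change of the 10 sites was 0.19 at 2 h, 0.18 at 6 h and 0.01 at 24 h, beside 0.07, 0.08 and 0.06 over all peaks. At 0.5 and 1 h the test held 9 sites, as site 1 of cluster 2 had too few fragments. The SE of a site's log2 fold change lay between 0.27 and 0.69 at 2, 6 and 24 h, and changes of that size were not detectable at this depth.

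The nearest to a SOX2 call was site 2 of cluster 2. It held 4.11 and 2.76 CPM in NT, 4.2 and 2.64 at 0.5 h, 4.22 and 2.21 at 1 h, 4.23 and 2.62 at 2 h, 2.54 and 2.57 at 6 h, and 1.95 and 1.56 at 24 h. The 24 h libraries were both below both NT libraries, while those up to 2 h overlapped them. The log2 fold change at 24 h was −0.99 (SE 0.43, adjusted p 0.117), and the call depended on the fit: the adjusted p was 0.0239 with the 12 SOX2-FKBP libraries alone, 0.0136 with the 8 of them at NT, 2, 6 and 24 h, and 0.026 with the replicate number as a block. Site 4 of cluster 1 was above NT, at 3.42 and 2.97 CPM at 2 h, 3.52 and 4.06 at 6 h and 3.69 and 3.7 at 24 h. Its log2 fold change was 0.70 at 6 h (SE 0.32, adjusted p 0.217) and 0.66 at 24 h (SE 0.32, adjusted p 0.167), neither past the threshold.

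After OCT4 depletion only sites of cluster 2 were called. Same-numbered OCT4-FKBP libraries deviated together (correlations of 0.129 to 0.319), but the main fit, like that of the study, did not pair them. Results with the replicate number as a block are given where the call differs, without the share of all peaks called in that fit. Site 2 was lost at 2, 6 and 24 h, site 1 at 6 and 24 h, and site 5 was gained at 24 h. Over all peaks 5.1% were lost and 1.92% gained at 2 h, 7.97% and 4.12% at 6 h, and 12.7% and 10.8% at 24 h. Site 1 entered the test only through OCT4-FKBP libraries in which it was high, so its loss is not counted here. Of the other 9 sites 1 was lost at each time. The median log2 fold change of these 9 was −0.21, −0.29 and −0.0004 at 2, 6 and 24 h, beside 0.02, 0.01 and −0.01 over all peaks. A lower level in a population of cells cannot tell fewer cells with the site open from less opening in each cell.

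Site 2 of cluster 2, the tallest peak of the cluster by enrichment, fell at all 3 times. It held 6.21 and 5.73 CPM in OCT4-FKBP NT, 1.57 and 2.64 at 2 h, 1.96 and 1.62 at 6 h, and 0.768 and 1.31 at 24 h, from 74 and 101 fragments in NT to 5 and 8 at 24 h. Every treated library was below both NT libraries. The log2 fold change was −1.44 at 2 h (SE 0.36, adjusted p 0.007), −1.72 at 6 h (SE 0.36, adjusted p 0.000536) and −2.50 at 24 h (SE 0.48, adjusted p 0.000111), a 2.72-fold, 3.29-fold and 5.65-fold lower level. The 2 h call was lost without the treated replicate 1 (log2 fold change −1.16, adjusted p 0.139) and held without any other replicate number, and at 6 and 24 h it held without each OCT4-FKBP replicate number in turn.

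Site 1 of cluster 2 was the faintest of the 10. It held 1.18 and 1.99 CPM in NT, 1.08 and 0.99 at 2 h, 0.523 and 0.312 at 6 h and 0.307 and 0.327 at 24 h, and the treated libraries lay below NT throughout. It was called lost at 6 h (log2 fold change −1.93, SE 0.50, adjusted p 0.00558) and 24 h (−2.30, SE 0.69, adjusted p 0.0115). These values rest on 49 fragments in NT, 13 at 6 h and 4 at 24 h, which give treated over NT ratios of 0.25 (95% exact interval 0.124 to 0.468) and 0.191 (0.0501 to 0.521) for counting error alone. The site passed the count filter in 7 libraries, the fewest allowed, and OCT4-FKBP cells at NT and 2 h gave 4 of these, so that it was tested only because it was high there, and its loss against that NT group was favoured by the filter. It was therefore not tested when any of their replicates was left out, and with DESeq2 the adjusted p at 24 h was 0.0587.

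Site 5 of cluster 2 moved the other way. It held 4.78 and 5.96 CPM in OCT4-FKBP NT, 7.27 and 6.21 at 2 h, 7.19 and 6.79 at 6 h and 9.53 and 9.82 at 24 h, each treated library above both NT libraries. It was called gained at 24 h (log2 fold change 0.85, SE 0.29, adjusted p 0.0289), a 1.81-fold higher level, and at 2 h (0.32, adjusted p 0.706) and 6 h (0.38, adjusted p 0.483) it was not. The gain was the least firm call, since it was lost without any single replicate number (adjusted p 0.06 without NT replicate 2, 0.115 without treated replicate 1, 0.122 without treated replicate 2 and 0.174 without NT replicate 1) and with total counts in place of TMM (log2 fold change 0.72, adjusted p 0.117), a scaling that moved the median of all peaks at 24 h by −0.13.

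The other sites of cluster 2 were not called after OCT4 depletion. Site 4 held 8.48 and 7.49 CPM in NT, 7.37 and 5.21 at 2 h, 5.68 and 5.98 at 6 h and 4.3 and 5.4 at 24 h. All treated libraries were below NT, with a log2 fold change of −0.70 at 24 h (SE 0.28, adjusted p 0.07), and with the replicate block this site passed (−0.70, adjusted p 0.0203). Site 3 held 6.38 and 6.76 CPM in NT and between 4.92 and 8.35 in the treated libraries, with its 24 h libraries on either side of NT. In cluster 1 the log2 fold changes lay between −0.60 and 0.25 at 2, 6 and 24 h, and the lowest adjusted p was 0.458.

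**Figure D3:**
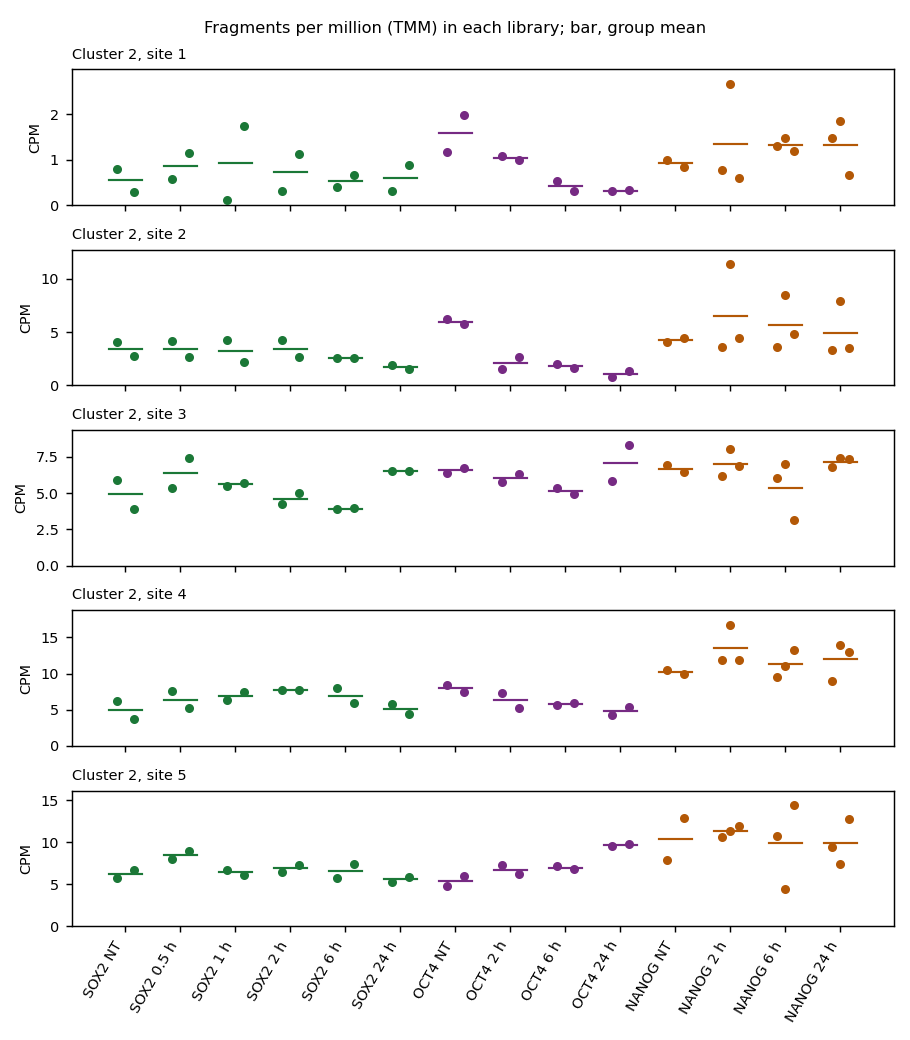
Level in CPM (TMM scaled) of sites 1 to 5 of cluster 2 in each of the 31 libraries, by line and time, with a bar at the group mean. In OCT4-FKBP cells (purple) site 2 goes from 6.21 and 5.73 in NT to 0.768 and 1.31 at 24 h while site 5 goes from 4.78 and 5.96 to 9.53 and 9.82.

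After NANOG depletion no site was called at 2, 6 or 24 h. Among all peaks 0.938%, 1.08% and 2.25% were lost and 0.0162%, 0.0367% and 0.288% gained at these times. Site 4 of cluster 1 had the lowest adjusted p of the 10 sites at all 3 times. It held 3.53 and 4.74 CPM in NT, 2.29, 0.669 and 2.83 at 2 h, 2.31, 1.84 and 3.61 at 6 h and 2.64, 3.25 and 2.88 at 24 h. The libraries at 2 and 24 h were all below NT, and 1 fragment stood behind the value of 0.669. The log2 fold change was −0.86 at 2 h (SE 0.33, adjusted p 0.388), −0.68 at 6 h (SE 0.32, adjusted p 0.596) and −0.55 at 24 h (SE 0.31, adjusted p 0.551). Site 2 of cluster 2, lost after OCT4 depletion, held 4.09 and 4.4 CPM in NANOG-FKBP NT. Its treated libraries of replicates 1 and 3 lay between 3.3 and 4.81 CPM and those of replicate 2, the shallow ones, at 11.4, 8.48 and 7.9, from 17, 23 and 17 fragments.

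Summed over its sites, neither cluster was lost or gained in any line at any time in the fit without a replicate block. The table in which each cluster replaced its sites had about the same background as that of the peaks, with 5.06%, 6.83% and 10.9% lost after SOX2 depletion at 2, 6 and 24 h, 5.09%, 7.97% and 12.7% after OCT4 and 0.938%, 1.08% and 2.25% after NANOG. At 1 h of SOX2 depletion 0.89% of its rows were gained. Cluster 1 held 15.5 and 15.2 CPM in SOX2-FKBP NT, 15.6 and 19.9 in OCT4-FKBP NT and 15.7 and 21.3 in NANOG-FKBP NT, and its log2 fold changes ran from −0.26 to 0.26 over the 11 comparisons. At 2 h they were 0.21 for SOX2 (95% interval −0.22 to 0.63), −0.16 for OCT4 (−0.57 to 0.25) and −0.22 for NANOG (−0.64 to 0.20).

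Cluster 2 held 27 and 27.9 CPM in OCT4-FKBP NT, 23.1 and 21.4 at 2 h, 20.7 and 19.6 at 6 h and 20.7 and 25.2 at 24 h. All treated libraries were below NT. The log2 fold changes were −0.30 at 2 h (95% interval −0.70 to 0.10, adjusted p 0.561), −0.44 at 6 h (−0.84 to −0.04, adjusted p 0.19) and −0.24 at 24 h (−0.66 to 0.17, adjusted p 0.456). At 6 h the loss passed with the replicate number as a block (adjusted p 0.0342) and in the table limited to rows with at least 10 counts in every library (−0.59, adjusted p 0.0154). After SOX2 depletion the cluster went from 22.9 and 17.4 CPM to 19.9 and 19.3 at 24 h (−0.03, 95% interval −0.45 to 0.38). In NANOG-FKBP it went from 30.3 and 34.5 CPM to 33, 50.1 and 35.8 at 2 h (0.23, 95% interval −0.16 to 0.61).

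**Figure D4:**
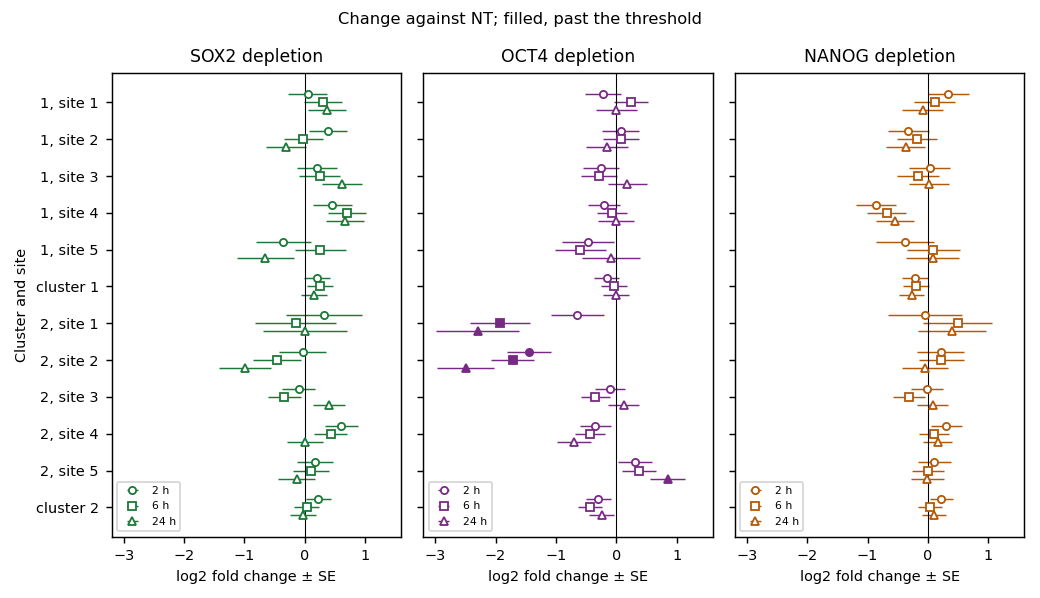
Log2 fold change against NT with its SE for each site and each summed cluster after SOX2, OCT4 and NANOG depletion, at 2 h (circles), 6 h (squares) and 24 h (triangles). Filled symbols passed an adjusted p of 0.05, and they are sites 1, 2 and 5 of cluster 2 after OCT4 depletion.

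A call after OCT4 and none after SOX2 depletion does not show that the responses differ, so the difference between them was tested. Without a replicate block none of the 10 sites and neither cluster passed at 2 or 24 h, beside 1.57% and 2.77% of all peaks. For site 2 of cluster 2 the SOX2 response exceeded that to OCT4 by 1.41 on the log2 scale at 2 h (SE 0.53, 95% interval 0.37 to 2.45, adjusted p 0.255) and by 1.51 at 24 h (SE 0.67, adjusted p 0.279). For site 5 the difference at 24 h was −0.98 (SE 0.42, adjusted p 0.254), and for site 4 of cluster 2 it was 0.96 at 2 h (SE 0.37, adjusted p 0.291). With the replicate block sites 2 and 4 of cluster 2 passed at 2 h (adjusted p 0.0169 and 0.0445). The share of all peaks that passed with the block is not given here, so these calls are not read as particular to the sites. In the test within groups below, the block raised the peaks called at 2 h of OCT4 depletion from 2.48% to 7.32%.

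Whether the sites of a cluster change alike was tested within groups. The change of each site at 2 h was tested against that of its group as a whole, over the 8783 tested peaks of 4215 groups of 2 or more. Differences from this test are on the natural log scale. After OCT4 depletion site 2 of cluster 2 differed from its cluster by −0.79 on that scale (adjusted p 0.0426 by edgeR's differential test within groups). Its log2 fold change was −1.44, beside −0.30 for the summed cluster. It was the only one of the 10 sites to pass, beside 2.48% of all peaks tested. Site 5 differed from its cluster by 0.43 on the natural log scale (adjusted p 0.413). Cluster 2 as a unit did not pass (adjusted p 0.0882, beside 3.65% of groups called). With the replicate block its adjusted p was 0.00345, in a fit that called 10.3% of groups and 7.32% of peaks. After SOX2 depletion no site passed at 2 h, beside 1.04% of peaks tested. In cluster 1 the natural log differences lay between −0.39 and 0.17 after SOX2 and between −0.22 and 0.16 after OCT4 depletion.

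The share of fragments that fell in the 10 sites, site 1 of cluster 2 included, was compared between NT and treated libraries. The treated libraries of all times of a line were pooled, so the p-values mix differences between times with the spread between replicates. Relative to the other eligible peaks, the log2 ratio of treated libraries minus that of NT was 0.295 in SOX2-FKBP (2 NT and 10 treated libraries, two-sided exact permutation p = 0.0606), −0.119 in OCT4-FKBP (2 and 6 libraries, exact p = 0.429) and 0.031 in NANOG-FKBP (2 and 9 libraries, exact p = 0.945). Adjusted over these 3 comparisons the p-values were 0.182, 0.643 and 0.945. The smallest p-values these designs allow are 0.0303, 0.0714 and 0.0364, and the smallest adjusted p that the 3 together can give is 0.0545, so none could have passed after adjustment. Against all other tested peaks the differences were 0.17, −0.279 and −0.059, and without 1 NT library they were 0.186 or 0.405 in SOX2-FKBP, −0.049 or −0.188 in OCT4-FKBP and −0.159 or 0.220 in NANOG-FKBP.

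The copies of cluster 2 carried peaks of their own, and their values can be set beside those of the sites. They share sequence and may share fragments with the sites, so they are not independent of them. At the 3 copies of site 2, peaks with enrichments of 14.9, 14.12 and 20.86 were all lost at 24 h of OCT4 depletion, with log2 fold changes of −2.44 (adjusted p 9.24e-06), −1.90 (9.37e-05) and −2.09 (3.53e-06), and 2 of them were already lost at 2 h (−1.12 and −1.31). The tallest of these, in the inverted copy of the cluster at chr8:20394353-20395671, held 25.1 and 24.24 CPM in NT, 9.536 and 10.17 at 2 h, 7.185 and 8.54 at 6 h and 4.149 and 7.367 at 24 h. Every treated library was below both NT libraries, as at site 2.

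Peaks at the 3 copies of site 4 were lost at 24 h as well, with log2 fold changes of −1.32, −1.37 and −1.48 and no call at 2 h, while site 4 itself stood at −0.70 at 24 h. The peak at the copy of site 3 (0.46 at 24 h, adjusted p 0.212) and those at the copies of site 5 (−0.30, adjusted p 0.698, and 0.86, adjusted p 0.124) were not called. The latter, in the inverted copy, held 1.343 and 1.533 CPM in NT and 2.92 and 2.292 at 24 h. On chromosome 8 no peak of the list stood at a copy of site 1. After NANOG depletion none of the 9 peaks was called, and after SOX2 depletion 1 copy of site 2 (−0.92, adjusted p 0.0389) and 1 of site 4 (−1.15, adjusted p 0.0135) were lost at 24 h.

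**Figure D5:**
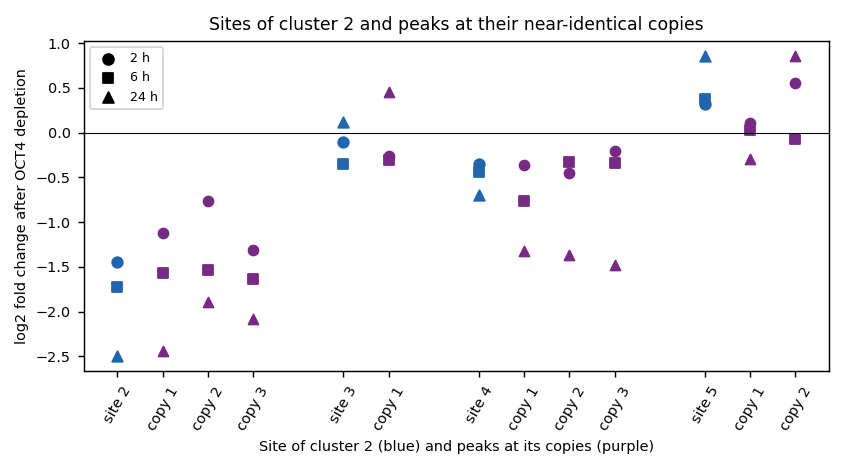
Log2 fold change after OCT4 depletion at 2, 6 and 24 h (circles, squares, triangles) of sites 2 to 5 of cluster 2 (blue) and of the peaks at their near-identical copies (purple). The 3 copies of site 2 lie between −2.44 and −1.90 at 24 h, beside −2.50 for the site.

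A peak next to each cluster was looked at as well. The peak of 22.89 past cluster 2 held a mean of 5.346 CPM in NT and had log2 fold changes of 0.28, −0.23 and −0.34 after 2, 6 and 24 h of OCT4 depletion (adjusted p 0.791, 0.759 and 0.584). The peak 917 bp from the start of Paqr8 stood at −0.10, 0.39 and 0.51 (adjusted p 0.967, 0.699 and 0.553).

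A joining distance of 12 kb, which is nearer to that used for super-enhancers, gave 611 clusters of 3612 peaks, and all 10 sites lay in them. After 2 and 24 h, 24 and 100 of the 611 summed clusters were lost with SOX2, 25 and 142 with OCT4 and 4 and 13 with NANOG, beside 5.02% and 10.8%, 5.05% and 12.5%, and 0.918% and 2.2% of all rows in that table. Of the 3612 constituent peaks 233 and 565 were lost with SOX2 (6.45% and 15.6%), 234 and 772 with OCT4 (6.48% and 21.4%) and 54 and 138 with NANOG (1.5% and 3.82%). Over all peaks the shares were 5.06% and 10.9%, 5.1% and 12.7%, and 0.938% and 2.25%. Of the 10 stretches within 150 kb of a start of a naive pluripotency gene, 0, 2 and 3 were lost after 2, 6 and 24 h without SOX2, 1, 2 and 4 without OCT4 and 0, 1 and 1 without NANOG. At 6 h 6.76%, 7.89% and 1.05% of all rows were lost after SOX2, OCT4 and NANOG depletion. Of the 10 stretches as close to genes of a formative, lineage and germ layer list, 0, 1 and 2 were lost without SOX2. Without OCT4 0, 0 and 2 were lost, and without NANOG none. Among them 1 was gained at 6 h without SOX2 and at 2 and at 6 h without OCT4. Over all peaks, not rows of that table, 1.18% were gained at 6 h after SOX2 and 1.92% and 4.12% at 2 and 6 h after OCT4 depletion. Only 2 of the 10 stretches near naive pluripotency genes are named. The median log2 fold change of these 10 was −0.13 at 2 h and −0.39 at 24 h of OCT4 depletion, and −0.27 at 24 h of SOX2 depletion. The one near Tet2, which encodes a methylcytosine dioxygenase, was the 1 lost at 2 h of OCT4 depletion. It had log2 fold changes of −0.67 at 2 h and −1.32 at 24 h of OCT4 depletion (adjusted p 0.036 and 1e-05) and −1.07 at 24 h of SOX2 depletion (adjusted p 0.000239). The one near Mir290a and Mir290b, microRNAs abundant in these cells, had −0.25 (adjusted p 0.739), 0.24 (adjusted p 0.733) and 0.19 (adjusted p 0.996) at 2 h of SOX2, OCT4 and NANOG depletion. These stretches held 36.288 to 137.868 CPM in NT, and the sums of both dense clusters lay between 15.2 and 34.5 CPM in single NT libraries. Such sums grow with the number and width of the peaks, which were not matched, so they do not compare accessibility.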

How the data were processed

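Nuclei of mouse embryonic stem cells were profiled by ATACseq. Per the methods and the labels, reads were aligned by the authors with bwa 0.7.17-r1188 (mm10), filtered at a mapping quality of 10 with samtools 1.10 and freed of duplicates with Picard 2.12.0. MACS2 was run on the merged libraries, and raw counts of fragments per peak were deposited without normalization. The authors' peak list gives the fold enrichment over background (a ratio), by which sites were chosen. Its −log10 p and q columns and its score, as deposited, were not used. Of 45 samples 31 have counts here, and the other 14 were not analysed here.

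Sites and gene lists were chosen with earlier results of these data known. Annotated starts are those of GENCODE M21, and sequence is that of mm10, with 0 peaks past a chromosome end. edgeR 4.0.16 (R 4.3.3) served for all count tests, with TMM factors, the quasi-likelihood F test, Benjamini-Hochberg adjustment over the whole table and a threshold of 0.05. A joint fit took 27 libraries and the 166430 peaks that exceeded 10 counts in over 6 of them. For 0.5 and 1 h the 12 SOX2-FKBP libraries were fitted, with 160432 peaks that exceeded 10 counts in over 2. The SE is the log2 fold change over the root of F. For clusters, raw counts were summed and replaced their sites in the table. Differences within groups were tested with diffSpliceDGE over all groups of 2 or more eligible peaks, a wider table than first planned, since 2 clusters give no adjustment. The share of fragments was compared by exact permutation over libraries (scipy 1.17.1). Copies were found with minimap2 2.31-r1302 and aligned with Biopython 1.88. The tests were tried on simulated data.

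Clusters named are those with the most sites and the smallest p within the cluster, which takes in both. For stretches joined at 12 kb some of those near naive pluripotency genes are named. Deviations from group means of same-numbered libraries correlated at 0.129 to 0.319 in OCT4-FKBP (6 pairs of conditions), so the numbers were taken to pair the samples there. They correlated at 0.0858 to 0.221 in SOX2-FKBP and 0.0242 to 0.266 in NANOG-FKBP, where they were not. No block entered the main design, following the study. Alternatives were DESeq2 1.42.0, other scalings, filters, fits and joining distances, a replicate block, and leaving out replicates. Chosen after seeing the data were peaks ranked by level, protein-coding starts alone, and the 12 SOX2-FKBP libraries for all times. Not every neighbouring peak and gene is reported here.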

Additional observations from a re-analysis of the deposited data

Results flagged for a closer look

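At some combinations of site and time every treated library lay above every NT library in one line and below every NT library in another. The difference between lines was tested only for SOX2 and OCT4 depletion at 2 and 24 h. The same pattern was met by 3.66% to 7.14% of all tested peaks for the same pairs of lines and times. Site 4 of cluster 1 had a log2 fold change of 0.46 after SOX2 depletion and −0.86 after NANOG depletion at 2 h (3.66% of peaks), and of 0.66 and −0.55 at 24 h (5.55%). Site 3 of cluster 1 had 0.24 after SOX2 and −0.29 after OCT4 depletion at 6 h (6.87%), and 0.20 and −0.26 at 2 h (7.14%). At 2 h the difference between these was 0.46 (adjusted p 0.896 by edgeR's quasi-likelihood test). Site 4 of cluster 2 had −0.35 after OCT4 and 0.31 after NANOG depletion at 2 h (3.93%), and site 1 of cluster 2 had −1.93 after OCT4 and 0.49 after NANOG depletion at 6 h (4.18%). At 2 h site 4 of cluster 2 also had 0.61 after SOX2 depletion, against −0.35 after OCT4 (7.14%). That difference of 0.96 had an adjusted p of 0.291 by the quasi-likelihood test, and 0.0445 with the replicate block. Of these changes, only that of site 1 of cluster 2 after OCT4 depletion passed its own test, and this site was tested only because it was high in OCT4-FKBP NT and 2 h libraries.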

How the results depend on the processing

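Most values kept their direction and their side of the threshold, and those that did not are given here. The cause was not tested except where the number of libraries or tested peaks is named. Same-numbered samples were put in a replicate block as 1 alternative. The share of sites lost 24 h after SOX2 depletion was then 10% instead of 0 (site 2 of cluster 2, adjusted p 0.026), and it was also 10% in a separate fit of each line and with the 12 SOX2-FKBP libraries only. With the block 50% of clusters were lost at 6 h of OCT4 depletion (cluster 2, adjusted p 0.0342), and 20% of sites differed between SOX2 and OCT4 depletion at 2 h instead of 0. The shares of all peaks called with the block are not given here, so these calls are not read as particular to the sites or clusters. With at least 10 counts in every library, 0% of sites were lost at 2 and 6 h and 10% at 24 h of OCT4 depletion (site 4 of cluster 2), and 50% of clusters at 6 and 24 h. Shares are of all 10 sites, so the 10% is 1 site, while that filter left only 3 to test. The filter removed site 2 of cluster 2 for its own low counts at 24 h of OCT4 depletion (5 and 8), so these shares say nothing about its loss. All shares lost after OCT4 depletion include site 1 of cluster 2 where it was tested. At 24 h of OCT4 depletion 10% of sites were lost with DESeq2 and 30% with total counts or with the replicate block, instead of 20%. With the block the added site was site 4 of cluster 2. The share of sites gained at 24 h was 0 with total counts, with at least 10 counts in every library and without any 1 replicate. Without 1 replicate, with fewer samples to test, the share lost after OCT4 depletion was 0 to 10% at 2 h and 10% at 6 and 24 h, and site 1 of cluster 2 fell under the filter.

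The number of clusters was 0 when joined at 3 kb, with an enrichment of at least 6 or over 5 kb from a start, 611 when joined at 12 kb and 280 with peaks chosen by level. In the 611, the percentage of sites lost after SOX2 depletion was 4.62, 8.25, 6.45, 9.22 and 15.6 over the times from 0.5 to 24 h, and that of clusters 5.07, 9.82, 3.93, 7.2 and 16.4. Sites gained were 0.277, 1.52, 0.775, 1.66 and 4.4, and clusters gained 0.164 at both 0.5 and 6 h, 0.655 after 1 h and 1.8 after 24 h. After OCT4 depletion 6.48 and 10.7 of sites were lost at 2 and 6 h and 4.09, 8.02 and 23.2 of clusters at 2, 6 and 24 h. Sites gained were 4.29 and 7.92 at 2 and 6 h, and clusters gained 3.11, 5.4 and 4.58 at 2, 6 and 24 h. After NANOG depletion 1.5, 1.83 and 3.82 of sites and 0.655, 0.818 and 2.13 of clusters were lost at 2, 6 and 24 h, with 0.0554, 0.0277 and 0.443 of sites gained and 0.327 of clusters at 24 h. SOX2 and OCT4 depletion differed for 3.1 of sites and 0.164 of clusters at 2 h, and for 4.37 and 2.13 at 24 h.

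Changes of cluster sums that did not pass the test changed sign under some settings. Cluster 1 at 0.5 h of SOX2 depletion was 0.046 with total counts and 0.0041 without a filter. At 24 h of OCT4 depletion it was 0.069 with DESeq2, 0.070 with its size factors in edgeR, 0.020 without a filter, 0.0035 with the block and 0.015 in separate fits. Cluster 2 at 6 h of SOX2 depletion was −0.041 with at least 10 counts in every library, −0.035 in separate fits and −0.027 with 12 libraries. Without 1 replicate cluster 1 ranged from −0.235 to 0.228 at 0.5 h and −0.10 to 0.318 at 1 h of SOX2 depletion, from −0.314 to 0.042, −0.179 to 0.175 and −0.225 to 0.159 at 2, 6 and 24 h of OCT4 depletion, and from −0.419 to 0.0080 and −0.402 to 0.025 at 2 and 6 h of NANOG depletion. Cluster 2 ranged from −0.054 to 0.344, −0.144 to 0.241 and −0.211 to 0.176 at 1, 6 and 24 h of SOX2 depletion and from −0.047 to 0.122 at 6 h of NANOG depletion. The fragment ratio after NANOG depletion was −0.059 against all other tested peaks and −0.159 to 0.220 without 1 replicate.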
